A study of Mus musculus with 16 samples.

Results

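The 10 Sox genes described here, Sox1, Sox2, Sox4, Sox5, Sox6, Sox8, Sox9, Sox10, Sox11 and Sox21, were the rows that carry these symbols among the 24060 gene labels measured in every library. All 10 passed the filter on low values (at least 1 FPKM in at least 4 libraries), as did 13470 labels in all. FPKM are fragments per kilobase of transcript, scaled to the fragments mapped in the library. The 16 libraries came from 4 mice, numbered 970, 971, 974 and 977, and each mouse gave 1 library to each of 4 groups: striatal IP, striatal input, hippocampal IP and hippocampal input. An input is RNA from the cleared tissue lysate. An IP is RNA that came down with ribosomes carrying a hemagglutinin (HA) tag. Every mouse was at postnatal day 63, hemizygous for Aldh1l1-creERT2 and heterozygous for Ribotag, on an FVB background crossed for 3 generations to C57/Bl6N (about 88% C57/Bl6N). The Aldh1l1 promoter drives a ligand-activated Cre recombinase in astrocytes, the glia that take up transmitter and potassium, and Cre switches on the tag on the ribosomal protein Rpl22. Inputs and IPs therefore shared the same alleles. An IP from mice without the tag was not analysed here.

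Sox proteins are transcription factors that bind DNA through a shared HMG domain and work with partner proteins, such as POU factors, at their target genes. In the nervous system the SoxB proteins Sox1 and Sox2 hold neural stem cells in a dividing state, and Sox21 opposes them. The SoxC proteins Sox4 and Sox11 act in newborn neurons. The SoxD proteins Sox5 and Sox6 lack an activation domain and modulate other Sox proteins in the oligodendrocyte lineage and in neurons. Of the SoxE proteins, Sox9 starts the production of glia and stays on in astrocytes, Sox10 drives myelin genes in oligodendrocytes, and Sox8 acts beside both.

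The tables gave an estimated depth of 14000000 to 21840000 fragments in striatal IP, 4160000 to 8990000 in striatal input, 18970000 to 22690000 in hippocampal IP and 9060000 to 12280000 in hippocampal input. The astrocyte marker list rose in IP over input with 10 of 10 genes in both regions (median log2 fold change 3.69 in striatum and 4.02 in hippocampus). The oligodendrocyte list fell with 10 of 10 genes in both regions (median -2.41 in striatum and -2.48 in hippocampus). Among the striatal inputs, those of animals 971 and 974 were the 2 shallowest and stood apart from those of 970 and 977 by transcript GC content. For the 10 Sox genes, results that rest on them are given without them where a call changes. Calls of single other genes and of gene lists were not examined without them.

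Sox1, Sox2, Sox4, Sox11 and Sox21 each have a single exon in GENCODE vM21 (GRCm38), and the other members are spliced. Their positions are chr8:12395295-12400126 for Sox1, chr3:34650405-34652461 for Sox2, chr14:118233232-118237030 for Sox21, chr13:28948919-28953713 for Sox4 and chr12:27334264-27342574 for Sox11. The spliced members lie at chr6:143828425-144781977 (Sox5), chr7:115470872-116038796 (Sox6), chr17:25565892-25570686 (Sox8), chr11:112782224-112787760 (Sox9) and chr15:79154908-79165240 (Sox10). Sox2 lies inside the span of the long noncoding gene Sox2ot and shares no exon base with it. Sox1, Sox4, Sox5, Sox8 and Sox21 share exon bases with another annotated gene, namely Gm25239, Gm26735, Sox5os1, 2810468N07Rik and Gm4675. The library kit does not mark strand, so reads from shared bases cannot be assigned to 1 gene of each pair. These overlaps are those of GENCODE vM21, and the exons counted may differ. The lengths behind the FPKM were not those of GENCODE vM21 for any member in which they could be recovered. They were 2455 bases for Sox2 (2057 in GENCODE), 2952 for Sox4 (4795), 4036 for Sox1 (4832) and 2709 for Sox10 (3051). Those of Sox8, Sox9, Sox11 and Sox21 were closer to GENCODE, and those of Sox5 and Sox6 could not be recovered.

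The 250 bases before the RefSeq start are shown for the SoxB and SoxC genes, because the 3 SoxB genes rose in both IPs, whereas Sox4 rose and Sox11 fell in hippocampal IP. The sequences are from RefSeq (GRCm38.p6) and run 5′ to 3′ along the gene's strand, with GC boxes (GGGCGG or its reverse complement CCGCCC) and CCAAT boxes (CCAAT or ATTGG) in capitals. The RefSeq start is the same as the GENCODE start for Sox21 and differs for the other 4. The windows of Sox1, for most of its length, and of Sox4, at its end, lie inside the GENCODE span of the gene, and those of Sox2 and Sox11 end upstream of it. They cover chr8:12395269-12395518 (plus strand) for Sox1, chr3:34649745-34649994 (plus) for Sox2, chr14:118237031-118237280 (minus) for Sox21, chr13:28953700-28953949 (minus) for Sox4 and chr12:27342719-27342968 (minus) for Sox11.
Sox1: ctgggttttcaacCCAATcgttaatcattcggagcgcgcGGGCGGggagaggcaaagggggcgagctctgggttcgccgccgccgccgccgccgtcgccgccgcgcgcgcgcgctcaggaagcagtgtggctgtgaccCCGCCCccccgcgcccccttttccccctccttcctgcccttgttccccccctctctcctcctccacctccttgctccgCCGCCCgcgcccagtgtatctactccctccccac
Sox2: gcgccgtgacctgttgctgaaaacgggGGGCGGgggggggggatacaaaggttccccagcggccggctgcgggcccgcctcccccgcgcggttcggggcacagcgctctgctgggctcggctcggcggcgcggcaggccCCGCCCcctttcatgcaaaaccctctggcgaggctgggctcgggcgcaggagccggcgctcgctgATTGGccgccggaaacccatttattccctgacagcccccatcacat
Sox21: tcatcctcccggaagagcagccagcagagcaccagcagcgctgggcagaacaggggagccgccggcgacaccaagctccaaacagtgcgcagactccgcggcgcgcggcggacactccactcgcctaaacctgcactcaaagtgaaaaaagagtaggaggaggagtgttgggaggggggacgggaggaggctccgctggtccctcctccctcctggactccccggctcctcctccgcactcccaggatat
Sox4: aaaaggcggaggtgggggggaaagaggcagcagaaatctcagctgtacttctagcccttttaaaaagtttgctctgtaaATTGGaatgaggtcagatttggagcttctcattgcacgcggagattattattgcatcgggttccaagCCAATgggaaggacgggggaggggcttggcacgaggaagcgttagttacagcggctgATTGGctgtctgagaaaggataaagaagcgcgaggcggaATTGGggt
Sox11: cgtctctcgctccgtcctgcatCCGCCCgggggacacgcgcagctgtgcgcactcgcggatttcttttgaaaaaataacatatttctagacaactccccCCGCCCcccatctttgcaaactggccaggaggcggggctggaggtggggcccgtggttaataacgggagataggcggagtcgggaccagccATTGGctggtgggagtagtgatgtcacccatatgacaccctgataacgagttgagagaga

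Of these 5 windows, those of Sox1 and Sox2 were the richest in G and C, at 71.2% with 29 CpG and 72.0% with 27 CpG, against a median of 52.4% and 6 CpG over 32817 RefSeq windows of the same length. Sox21 had 65.2% and 17 CpG, Sox4 50.8% and 11 CpG, and Sox11 58.0% and 17 CpG. Sox1 held 3 GC boxes and 1 CCAAT box, Sox2 held 2 and 1, Sox11 held 2 and 1, Sox4 held 0 and 4, and Sox21 held 0 of either. GC boxes were present in 32.7% of all windows and CCAAT boxes in 33.8%. A TATA box (TATAAA, in 12.4% of all windows), a Sox-type core (AACAAT, in 9.42%) and the octamer of POU proteins (ATGCAAAT, in 1.6%), each read on both strands, were in 0 of the 5 windows. These are matches of letters and say nothing of binding.

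Sox RNA was more abundant in the IPs than in the inputs, and its make-up differed. Levels below are scaled FPKM, that is FPKM divided by a trimmed-mean factor per library. The 10 levels summed to 310 ± 56.3 in striatal IP against 72.2 ± 3.15 in striatal input, and to 415 ± 30.8 in hippocampal IP against 57.8 ± 5.74 in hippocampal input (mean ± SD, n = 4). Sox9 made up 46.1% ± 1.8 of the sum in striatal IP and 12.1% ± 1.2 in striatal input, and 51.8% ± 2.2 in hippocampal IP and 22.9% ± 1.8 in hippocampal input. Sox10 made up 0.883% ± 0.45 in striatal IP against 20.5% ± 2.0 in striatal input, and 0.264% ± 0.12 in hippocampal IP against 16.2% ± 2.0 in hippocampal input. In bulk RNA, fewer cells of a type and less RNA per cell cannot be told apart, here or in the results that follow.

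**Figure D1:**
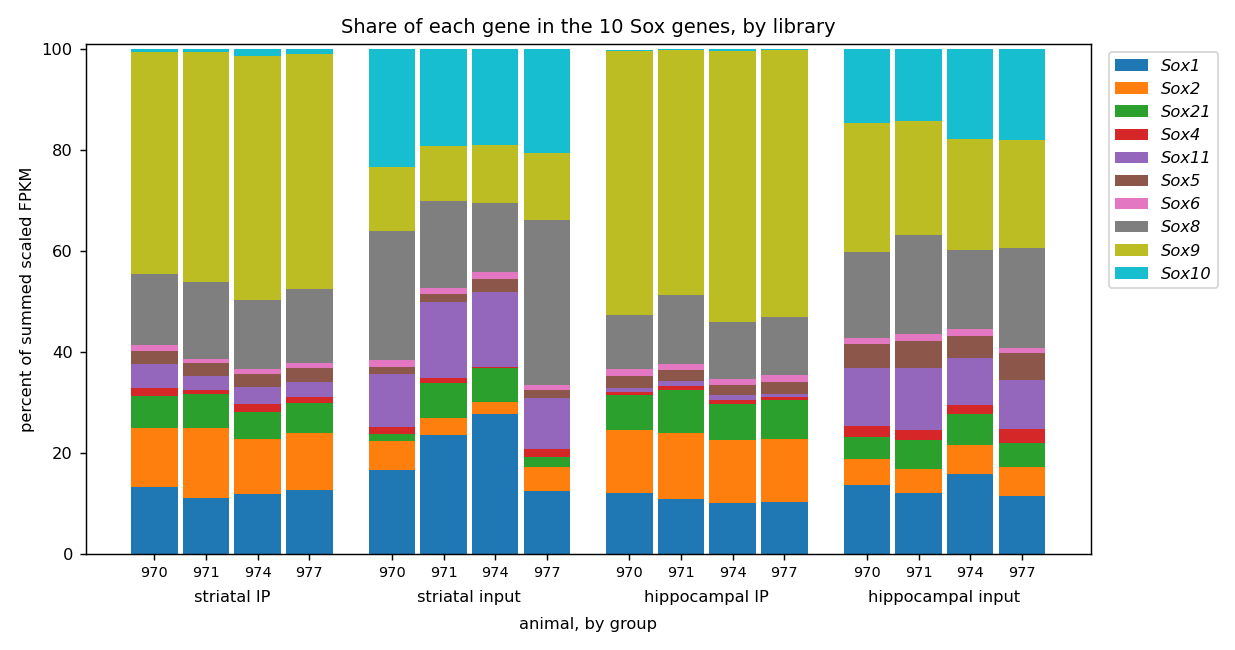
Stacked bars give the percent of the summed scaled FPKM of the 10 Sox genes that each gene holds, with 1 bar per library, grouped as striatal IP, striatal input, hippocampal IP and hippocampal input and numbered by animal. Sox9 fills 44.0% to 48.3% of the striatal IP bars and 48.6% to 53.6% of the hippocampal IP bars, and Sox10 is a wide band in the inputs and a thin one in the IPs.

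The first question was which Sox RNAs the astrocyte precipitation enriched. In striatum, 8 of the 10 members rose in IP over input, 1 (Sox10) fell and 1 (Sox11) did not pass, where 33.5% of the 13470 tested genes rose, 31.4% fell and 65.0% passed in either direction (limma, Benjamini-Hochberg adjusted p under 0.05). In hippocampus, 8 rose and 2 (Sox10 and Sox11) fell, where 30.1% of all tested genes rose, 35.5% fell and 65.5% passed. The ranges of IP and input did not overlap for 9 members in striatum (52.1% of all tested genes) and 10 in hippocampus (69.8%). The median log2 fold change of the members was 1.49 in striatum and 2.0 in hippocampus, beside 0.0099 and -0.1 over all tested genes. Fold changes are on the log2(scaled FPKM + 1) scale, with SE, and understate changes of genes with low levels.

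**Figure D2:**
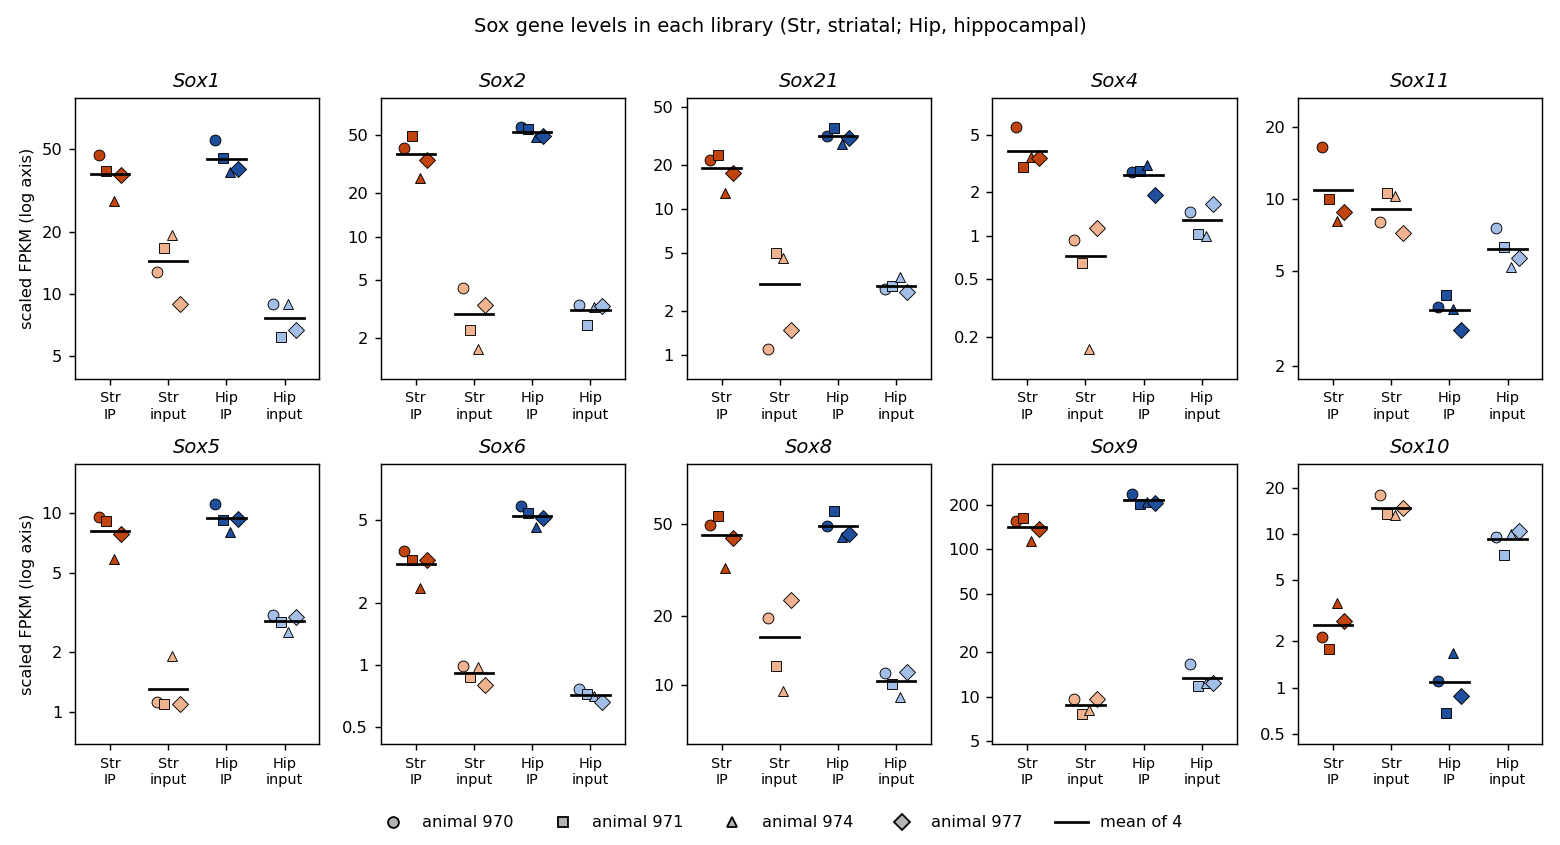
Points give the scaled FPKM (log axis) of each Sox gene in each library, with 1 symbol per animal, in striatal (Str) IP, striatal input, hippocampal (Hip) IP and hippocampal input; black lines are means of 4. Sox9 lies between 114 and 162 in striatal IP and between 7.57 and 9.70 in striatal input, whereas Sox10 lies below its inputs in every IP and Sox11 is lowest in hippocampal IP.

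Sox9, the glial fate factor, was the most abundant member in every IP library. It had 155, 162, 114 and 138 scaled FPKM in striatal IP of animals 970, 971, 974 and 977, against 9.70, 7.57, 8.08 and 9.68 in striatal input. In hippocampal IP it had 239, 204, 209 and 208, against 16.7, 11.7, 12.3 and 12.5 in hippocampal input. No IP library overlapped its input group. Sox9 rose 16.2-fold by the ratio of means in both regions (log2 fold change 3.87 ± 0.14, adjusted p = 1.19e-11 in striatum and 3.93 ± 0.14, adjusted p = 4.95e-12 in hippocampus). The astrocyte list had medians of 3.69 and 4.02 in the same comparisons.

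Sox8, the SoxE gene that acts beside Sox9 and Sox10, rose as well. It had 49.6, 53.9, 32.3 and 43.4 scaled FPKM in striatal IP, against 19.6, 12.1, 9.40 and 23.4 in striatal input. Hippocampal IPs had 49.2, 57.2, 44.0 and 45.5, against 11.3, 10.1, 8.83 and 11.4 in hippocampal input. IPs and inputs did not overlap, and the striatal inputs of animals 970 and 977 were higher than those of 971 and 974. Its log2 fold change was 1.48 ± 0.22 in striatum (adjusted p = 2.35e-05) and 2.13 ± 0.22 in hippocampus (adjusted p = 3.13e-07).

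Sox10, the myelin gene activator, fell in both IPs. It had 2.15, 1.80, 3.54 and 2.71 scaled FPKM in striatal IP, against 18.0, 13.5, 13.2 and 14.8 in striatal input. Values in hippocampal IP were 1.10, 0.683, 1.68 and 0.877, against 9.60, 7.35, 10.03 and 10.4 in hippocampal input. All 8 IP libraries lay below all 8 inputs, and the IP of animal 974 was the highest in each region. Sox10 fell by 2.18 ± 0.17 on the log2 scale in striatum (adjusted p = 1.43e-08) and by 2.32 ± 0.17 in hippocampus (adjusted p = 5.38e-09).

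The Sox10 found in the IP was 11.9%, 13.3%, 26.7% and 18.3% of the same animal's input in striatum, where the oligodendrocyte list was at a median of 8.28%, 12.7%, 28.8% and 23.9%. In hippocampus Sox10 was at 11.5%, 9.28%, 16.7% and 8.41%, and the oligodendrocyte list at 6.68%, 6.4%, 19.1% and 12.4%. Animal 974 had the highest percent of both in both regions. The oligodendrocyte precursor list was at 13.8% to 19.6% in striatum and 8.37% to 27.7% in hippocampus. The part of oligodendrocyte RNA carried into the IPs in these Sox10 values was not tested.

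Target genes of Sox10 in myelinating cells fell too. All 6 tested genes of a list of 7 fell in both regions (median log2 fold change -1.85 in striatum and -2.25 in hippocampus). Of 4 genes tied to Sox9 and its partner NFIA in gliogenesis, 4 rose in striatum and 3 in hippocampus (median 2.17 and 2.3). Nfia itself rose by 1.67 ± 0.21 in striatum (adjusted p = 3.91e-06) and by 1.93 ± 0.21 in hippocampus (adjusted p = 6.1e-07). Apcdd1, a Wnt inhibitor and target of both factors, rose by 1.87 ± 0.19 in striatum (adjusted p = 3.03e-07), and in hippocampus its log2 fold change of 0.23 did not pass (adjusted p = 0.305).

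The 3 SoxB genes, whose start windows are printed above, rose in both IPs. Sox2, a factor of neural stem cells that astrocytes keep, had 41.0, 49.7, 25.4 and 33.7 scaled FPKM in striatal IP, against 4.43, 2.27, 1.67 and 3.37 in striatal input. In hippocampal IP it had 56.8, 55.3, 49.1 and 49.7, against 3.37, 2.47, 3.28 and 3.32 in hippocampal input. The groups stood far apart, and within striatal IP animal 974 was the lowest. The ratio of means was 12.7 in striatum (log2 fold change 3.30 ± 0.21, adjusted p = 1.04e-09) and 17.0 in hippocampus (3.71 ± 0.21, adjusted p = 1.98e-10). Sox2ot, the noncoding gene around Sox2, fell by 0.78 on the log2 scale in striatal IP (limma, adjusted p = 0.00101) and by 1.09 in hippocampal IP (adjusted p = 4.18e-05). An IP takes RNA with ribosomes, so whether this noncoding RNA was low in astrocytes was not tested.

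Sox21, the SoxB gene that opposes Sox1 and Sox2, had 21.7, 23.4, 12.8 and 17.7 scaled FPKM in striatal IP, against 1.10, 4.99, 4.63 and 1.48 in striatal input. Hippocampal IPs had 31.7, 35.8, 27.8 and 30.3, against 2.85, 2.98, 3.45 and 2.70 in hippocampal input. Its striatal inputs were higher in animals 971 and 974 than in 970 and 977, and no input overlapped any IP. Its log2 fold change was 2.42 ± 0.28 in striatum (adjusted p = 1.3e-06) and 3.02 ± 0.28 in hippocampus (adjusted p = 7.83e-08). Without the striatal inputs of 971 and 974 it was 3.09 in striatum (adjusted p = 6.34e-09).

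Sox1, a stem cell factor like Sox2, had 46.7, 39.3, 28.0 and 37.6 scaled FPKM in striatal IP, against 12.8, 16.6, 19.3 and 8.96 in striatal input. Values in hippocampal IP were 55.4, 45.3, 38.9 and 39.9, against 8.91, 6.20, 8.89 and 6.64 in hippocampal input. IPs and inputs did not overlap in either region, though in animal 974 the striatal IP of 28.0 stood beside an input of 19.3. The log2 fold change was 1.36 ± 0.21 in striatum (adjusted p = 2.46e-05) and 2.41 ± 0.21 in hippocampus (adjusted p = 2.97e-08).

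Of the 5 POU genes listed as partners of SoxB proteins, 3 rose and 1 fell in striatum, and 4 rose and 1 fell in hippocampus (median 1.15 and 1.85). The POU factor gene Pou3f4 rose by 1.24 ± 0.18 in striatum (adjusted p = 1.13e-05) and by 3.10 ± 0.18 in hippocampus (adjusted p = 2.29e-10). Pou3f1 was the gene that fell, with log2 fold changes of -1.61 ± 0.24 in striatum (limma, adjusted p = 2.04e-05) and -1.63 ± 0.24 in hippocampus (adjusted p = 1.56e-05).

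The 2 SoxC genes, both of newborn neurons, differed from each other. Sox11 had 16.6, 9.99, 8.07 and 8.87 scaled FPKM in striatal IP, against 8.06, 10.7, 10.3 and 7.25 in striatal input. In hippocampal IP it had 3.52, 3.97, 3.46 and 2.82, against 7.54, 6.31, 5.18 and 5.65 in hippocampal input. In hippocampus every IP lay below every input, whereas in striatum the groups overlapped, with animals 970 and 977 higher in IP and 971 and 974 lower. Sox11 fell by 0.69 ± 0.19 on the log2 scale in hippocampus (adjusted p = 0.00408). In striatum its log2 fold change was 0.20 ± 0.19 (adjusted p = 0.353), and it was -0.048 without animal 970.

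As a percent of the same animal's input, Sox11 in the IP was 206%, 93.7%, 78.3% and 122% in striatum and 46.7%, 62.9%, 66.8% and 50.0% in hippocampus. These values lay above those of the neuron list (6.98% to 18.2% in striatum, 5.23% to 10.9% in hippocampus) and below those of the astrocyte list (1140% to 1590% in striatum, 1640% to 1890% in hippocampus).

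Sox4, the SoxC gene with the lower level of the pair in striatum, had 5.60, 2.97, 3.48 and 3.44 scaled FPKM in striatal IP, against 0.932, 0.647, 0.163 and 1.13 in striatal input. In hippocampal IP it had 2.76, 2.78, 3.06 and 1.91, against 1.46, 1.03, 0.992 and 1.66 in hippocampal input. The IPs were above the inputs with no overlap in both regions. The striatal inputs rested on 23, 12, 2 and 39 fragments, and 2 fragments allow 0.0198 to 0.589 scaled FPKM (exact 95% Poisson interval, counting error only). Sox4 rose by 1.51 ± 0.20 on the log2 scale in striatum (adjusted p = 4.32e-06) and by 0.67 ± 0.20 in hippocampus (adjusted p = 0.00676). The hippocampal call was lost without animal 971 (adjusted p = 0.0609) and with unscaled FPKM (adjusted p = 0.214).

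Genes of newborn neurons, in which SoxC proteins act, fell in hippocampal IP. Of 6 listed genes 4 were tested, and all 4 fell there (median log2 fold change -2.18), whereas in striatum 0 rose and 0 fell (median 0.07). Neurod1, 1 of these 4, was between 0 and 0.205 scaled FPKM in all striatal libraries, close to 0. In animals 970, 971, 974 and 977, Tubb3 had 9.27, 9.34, 8.78 and 7.18 in striatal IP, against 18.4, 7.41, 5.60 and 25.0 in input. Its striatal IP was thus below the input in 970 and 977 and above it in 971 and 974. Cd24a inputs in striatum were 7.06, 9.65, 13.9 and 5.36. The striatal calls were not examined without the inputs of 971 and 974. The 2 listed genes that were not tested did not pass the filter on low values. Draxin, an axon guidance gene, had 1.03 to 2.12 scaled FPKM in striatal IP against 0 to 0.115 in striatal input, and 0.483 to 1.15 in hippocampal IP against 0.209 to 0.520 in hippocampal input. Igfbpl1 had 0.478 to 2.71 in striatal IP against 0 to 0.619 in striatal input, and 0.0877 to 0.382 in hippocampal IP against 0.370 to 0.992 in hippocampal input. Doublecortin (Dcx), a microtubule protein of migrating newborn neurons, had a log2 fold change of 0.19 ± 0.14 in striatum (adjusted p = 0.264) and fell by 0.92 ± 0.14 in hippocampus (adjusted p = 2.88e-05).

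Both SoxD genes rose in both IPs. Sox5, which modulates SoxE proteins in the oligodendrocyte lineage, had 9.57, 9.07, 5.89 and 7.83 scaled FPKM in striatal IP, against 1.13, 1.10, 1.91 and 1.10 in striatal input. Hippocampal IPs had 11.1, 9.22, 7.998 and 9.30, against 3.05, 2.84, 2.50 and 2.99 in hippocampal input. The groups did not overlap, and the striatal input of animal 974 stood above the other inputs of its group. Its log2 fold change was 1.97 ± 0.15 in striatum (adjusted p = 8.41e-09) and 1.43 ± 0.15 in hippocampus (adjusted p = 3.14e-07).

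Sox6, the second SoxD gene, had 3.57, 3.20, 2.36 and 3.23 scaled FPKM in striatal IP, against 0.986, 0.870, 0.976 and 0.802 in striatal input. Values in hippocampal IP were 5.89, 5.42, 4.63 and 5.16, against 0.765, 0.723, 0.706 and 0.658 in hippocampal input. Every input was below 1, and every IP was above every input. The log2 fold change was 1.09 ± 0.11 in striatum (adjusted p = 2.6e-07) and 1.87 ± 0.11 in hippocampus (adjusted p = 3.69e-10). Sox6 is known to act in interneurons from the medial ganglionic eminence. A list drawn up for them fell in the IPs, with 7 of 7 genes in striatum (median -2.52) and 6 of 7 in hippocampus (median -3.0). The list also holds Gad1 and Gad2, general genes of GABA synthesis, so it is not confined to these interneurons.

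**Figure D3:**
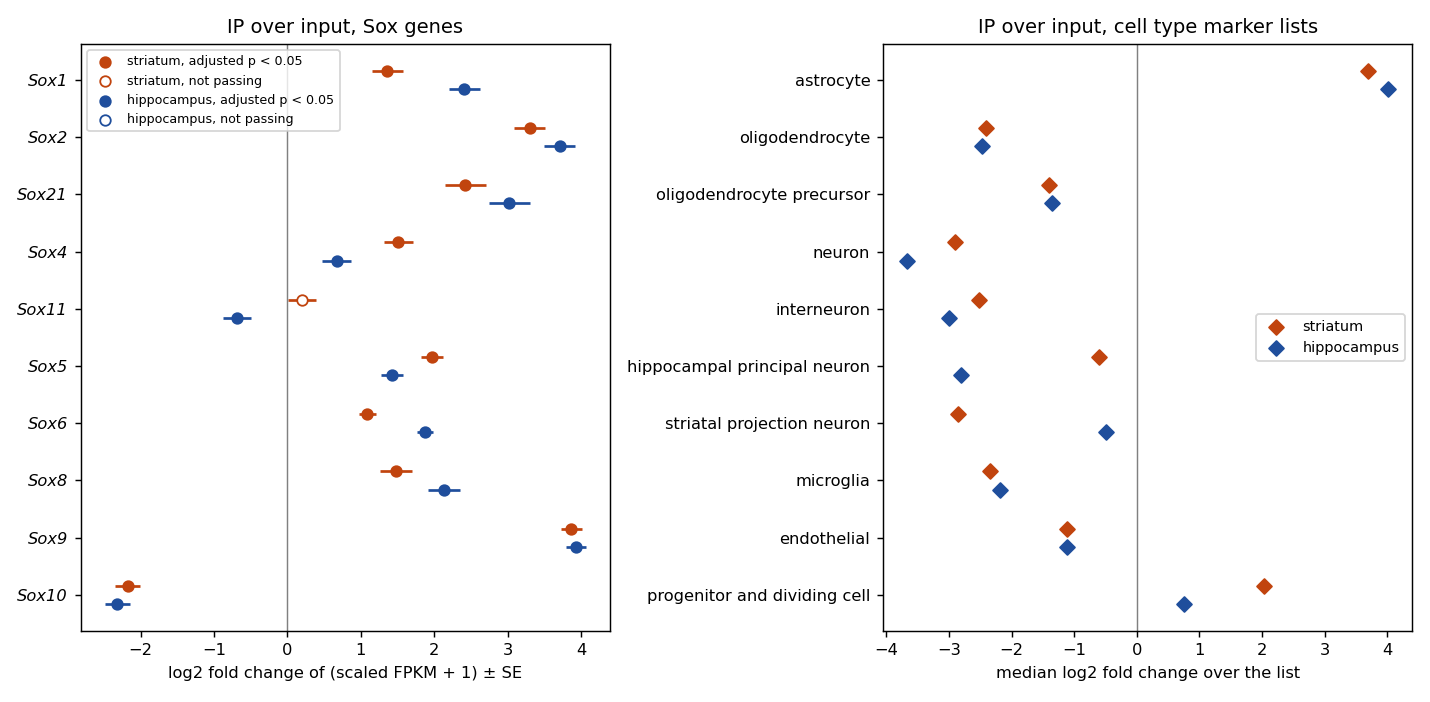
The left panel gives the log2 fold change of IP over input (± SE) for each Sox gene in striatum and hippocampus, filled where limma's adjusted p was under 0.05, and the right panel gives the median log2 fold change of each cell type marker list. Sox9 is at 3.87 and 3.93, beside 3.69 and 4.02 for the astrocyte list, and Sox10 is at -2.18 and -2.32, beside -2.41 and -2.48 for the oligodendrocyte list.

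The second question was how the Sox RNAs of the IPs differed between regions. Sox11 and Sox10 were higher in striatal IP than in hippocampal IP, and Sox6 and Sox9 were lower. That is 2 members higher, 2 lower and 6 not passing, where 7.18% of all tested genes were higher, 5.38% lower and 12.6% passed in either direction. Between regions, the IP ranges did not overlap for 5 members (19.6% of all tested genes). The median log2 fold change of the members was -0.23, beside -0.016 over all tested genes.

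Sox11 averaged 10.9 ± 3.90 scaled FPKM in striatal IP and 3.44 ± 0.470 in hippocampal IP (SD, n = 4). Every striatal IP was above every hippocampal IP, the closest being 8.07 beside 3.97. The log2 fold change was 1.38 ± 0.19 (adjusted p = 9.14e-05), and striatum was the higher in 4 of 4 animals. In the same comparison 3 of the 4 tested newborn neuron genes were higher in striatal IP, namely Dcx (1.2 ± 0.14, adjusted p = 2.6e-05), the neuronal tubulin gene Tubb3 (1.87 ± 0.34, adjusted p = 0.00109) and the surface protein gene Cd24a (1.99 ± 0.34, adjusted p = 0.000655). Neurod1, a factor of hippocampal granule neurons, was lower (-1.01 ± 0.15, adjusted p = 0.000224).

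Of 4 tested markers of progenitor and dividing cells, 2 were higher in striatal IP: Top2a (2.62 ± 0.23, adjusted p = 8.7e-07), a topoisomerase of dividing cells, and Mki67 (1.25 ± 0.21, adjusted p = 0.000607), a proliferation marker. The summed level of the 5 listed markers was 52.4 to 81.0 scaled FPKM in striatal IP and 49.4 to 63 in hippocampal IP, and 0 of the 5 were at 0 in a whole group. The summed newborn neuron list was 21.0 to 42.9 in striatal IP and 5.58 to 7.35 in hippocampal IP. Among the striatal IPs, animal 970 was the highest in Sox11 (16.6), Dcx (3.42), Cd24a (25.5), Top2a (18.4) and both sums, and it was not the highest in Mki67 (3.16, beside 4.46 in 974) or Tubb3 (9.27, beside 9.34 in 971). The part of such cells in the Sox11 difference was not tested.

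Sox6 averaged 3.09 ± 0.514 scaled FPKM in striatal IP and 5.27 ± 0.527 in hippocampal IP, with no overlap and a log2 fold change of -0.62 ± 0.11 (adjusted p = 0.00106). Sox9 averaged 142 ± 21.5 in striatal IP and 215 ± 16.2 in hippocampal IP, also with no overlap (-0.60 ± 0.14, adjusted p = 0.0071). The Sox9 call was lost without animal 977 (adjusted p = 0.0685) and with unscaled FPKM (adjusted p = 0.0523). In the astrocyte list, 5 of 10 genes were lower in striatal IP and 0 higher, with a median of -0.58 beside the Sox9 value of -0.60. The summed astrocyte list was 6570 to 12100 scaled FPKM in striatal IP and 10600 to 14500 in hippocampal IP. The part of astrocyte yield in the Sox9 and Sox6 differences was not tested.

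Sox10 averaged 2.55 ± 0.759 scaled FPKM in striatal IP and 1.08 ± 0.430 in hippocampal IP, and the groups did not overlap, the closest values being 1.80 and 1.68. The log2 fold change was 0.76 ± 0.17 (adjusted p = 0.00693), and the call was lost without animal 977 (adjusted p = 0.101). The oligodendrocyte list was higher in striatal IP with 6 of 10 genes (median 1.04), at a summed level of 47.0 to 97.5 scaled FPKM against 19.2 to 40.2 in hippocampal IP. Of the 6 tested Sox10 targets, 3 were higher and 0 lower. The part of oligodendrocyte RNA in this Sox10 difference was not tested.

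The other 6 members did not pass between the IPs. Sox21 had a log2 fold change of -0.73 ± 0.28 (adjusted p = 0.112), with all striatal IPs below all hippocampal IPs, and it passed without the striatal inputs of 971 and 974 (adjusted p = 0.00376) and when only the IPs were fitted (adjusted p = 0.0231). Sox2 (-0.52 ± 0.21, adjusted p = 0.126) passed without those 2 inputs (adjusted p = 0.0384). Those inputs are not among the libraries compared and enter through the shared estimate of spread. Sox4 had a log2 fold change of 0.41 (adjusted p = 0.214), Sox1 of -0.25 (adjusted p = 0.521), Sox5 of -0.20 (adjusted p = 0.448) and Sox8 of -0.14 (adjusted p = 0.765).

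**Figure D4:**
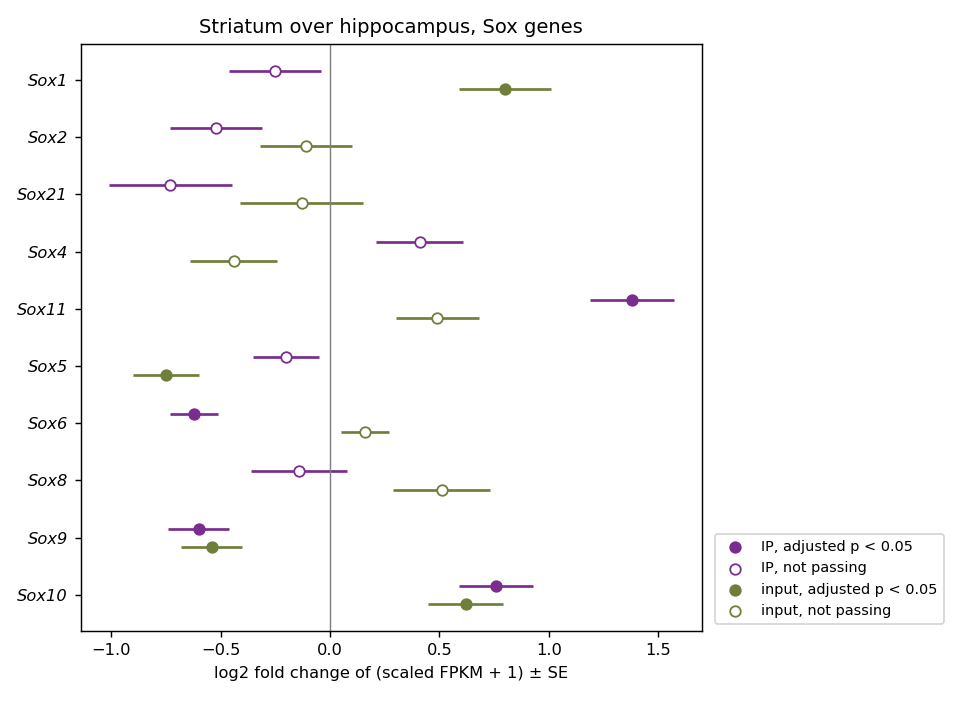
Points give the log2 fold change of striatum over hippocampus (± SE) for each Sox gene in the IPs and in the inputs, filled where limma's adjusted p was under 0.05. Sox11 is higher in striatal IP at 1.38, Sox9 is lower and Sox10 higher in both kinds of library, and Sox1 at 0.80 and Sox5 at -0.75 pass in the inputs and not in the IPs.

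The inputs posed the question of regions for whole tissue. Sox1 and Sox10 were higher in striatal than in hippocampal input and Sox5 and Sox9 were lower. That is 2 members higher, 2 lower and 6 not passing, where 14.5% of all tested genes were higher, 21.8% lower and 36.3% passed in either direction. The input ranges of the regions did not overlap for 5 members (33.4% of all tested genes). The members' median was 0.02, beside -0.07 over all tested genes. Sox10 averaged 14.9 ± 2.17 scaled FPKM in striatal input and 9.35 ± 1.37 in hippocampal input (log2 fold change 0.62 ± 0.17, adjusted p = 0.0111), a call lost without animal 970 (adjusted p = 0.0794). Of the 10 oligodendrocyte markers, 7 were higher in striatal input (median 1.08), with a summed level of 434 to 539 against 183 to 214 in hippocampal input.

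Sox5 averaged 1.31 ± 0.401 scaled FPKM in striatal input and 2.85 ± 0.245 in hippocampal input, with no overlap (-0.75 ± 0.15, adjusted p = 0.001). Sox9 averaged 8.76 ± 1.10 in striatal input and 13.3 ± 2.28 in hippocampal input, also with no overlap (-0.54 ± 0.14, adjusted p = 0.00562). Without the striatal inputs of 971 and 974 the Sox9 call was lost (adjusted p = 0.0695).

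Sox1 averaged 14.4 ± 4.51 scaled FPKM in striatal input and 7.66 ± 1.44 in hippocampal input, with no overlap, the closest values being 8.96 and 8.91 (0.80 ± 0.21, adjusted p = 0.00718). The call was lost without animal 971 (adjusted p = 0.114) and without the striatal inputs of 971 and 974 (adjusted p = 0.137). Sox11 had a log2 fold change of 0.49 ± 0.19 (adjusted p = 0.0524) and Sox8 of 0.51 ± 0.22 (adjusted p = 0.0831), and both passed with the animal as a block (adjusted p = 0.0335 for Sox11 and 0.0392 for Sox8). Sox11 also passed with unscaled FPKM (adjusted p = 0.0312), without animal 970 (0.018) and when only the inputs were fitted (0.0499), and Sox8 without animal 974 (0.0214). The remaining 4 did not pass, with log2 fold changes of -0.44 for Sox4 (adjusted p = 0.0929), 0.16 for Sox6 (adjusted p = 0.287), -0.13 for Sox21 (adjusted p = 0.747) and -0.11 for Sox2 (adjusted p = 0.708). Without the striatal inputs of 971 and 974, Sox8 (0.98, adjusted p = 0.00076) and Sox21 (-0.80, adjusted p = 0.00516) passed.

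Whether the regional difference in the IPs departed from that in the inputs was tested as the difference of the 2 differences, which is also the difference between regions in IP over input. Sox11 passed as higher and Sox1 and Sox6 as lower. That is 1 member higher, 2 lower and 7 not passing, where 8.47% of all tested genes were higher, 5.33% lower and 13.8% passed in either direction. The members' median was -0.24, beside 0.09 over all tested genes. Sox6 had -0.78 ± 0.16 (adjusted p = 0.00315): its striatal value was the lower in the IPs of 4 of 4 animals and the higher in the inputs of 4 of 4. The Sox6 call held in all the alternatives run for this comparison. Sox11 had 0.89 ± 0.26 (adjusted p = 0.0344), a call lost without animal 970 (adjusted p = 0.184), 971 (0.114) or 977 (0.117). Sox1 had -1.04 ± 0.29 (adjusted p = 0.0259), a call lost without animal 970 (adjusted p = 0.0672), 971 (0.219) or 974 (0.065) and without the striatal inputs of 971 and 974 (0.113).

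Sox4 had a difference of differences of 0.84 ± 0.28 (adjusted p = 0.0537) and passed with the animal as a block (adjusted p = 0.0437) and with unscaled FPKM (0.0405). Sox9 had -0.057 ± 0.19 (adjusted p = 0.878) and Sox10 0.15 ± 0.25 (adjusted p = 0.732), so their regional differences were not shown to differ between IP and input. The remaining values were -0.66 for Sox8 (adjusted p = 0.183), -0.60 for Sox21 (adjusted p = 0.332; 0.07 without the striatal inputs of 971 and 974), 0.55 for Sox5 (adjusted p = 0.1) and -0.41 for Sox2 (adjusted p = 0.372). Sox5 passed with unscaled FPKM (adjusted p = 0.00397) and without animal 974 (0.00861), and without the striatal inputs of 971 and 974 both Sox5 (0.66, adjusted p = 0.049) and Sox8 (-1.13, adjusted p = 0.00444) passed. Of the newborn neuron genes, Dcx (1.11 ± 0.20, adjusted p = 0.00146), Tubb3 (2.52 ± 0.48, adjusted p = 0.00177) and Cd24a (2.05 ± 0.47, adjusted p = 0.00811) passed as higher. The fourth tested, Neurod1, passed as well (2.69 ± 0.21, adjusted p = 7.76e-07), but with its striatal levels near 0 this value is that of its fall in hippocampus alone. The calls of these newborn neuron genes were not examined without the striatal inputs of 971 and 974. In those inputs Tubb3 was lower, and Cd24a higher, than in the other striatal inputs.

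The striatal inputs of 971 and 974 differed from those of 970 and 977 across all genes by transcript GC content. The median log2 difference, 971 and 974 minus 970 and 977, was 0.47 in the lowest of 10 equal classes of genes by GC and -0.61 in the highest. Sox8 (54.2% GC) was at -0.94, Sox2 (50.5%) at -0.72 and Sox4 (51.1%) at -0.55, each further down than the median of its class, which was -0.33 for Sox8 and -0.04 for Sox2 and Sox4. Sox1 (56.9%) and Sox21 (58.3%) lay the other way, at 0.69 and 1.35, where their classes had -0.48 and -0.61. The part of GC content and depth in the values of these genes in striatal input was not tested.

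**Figure D5:**
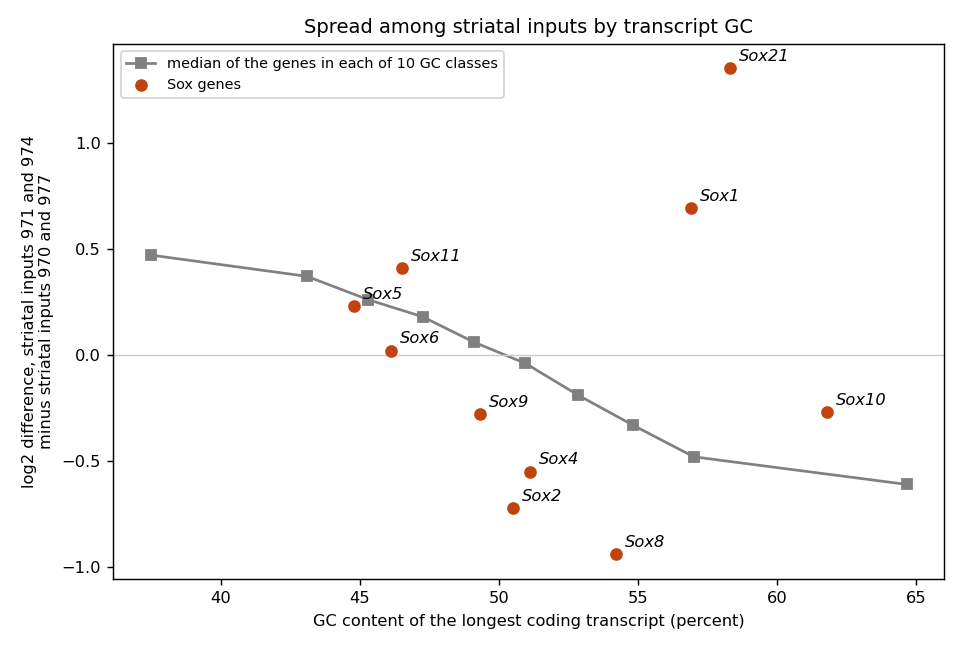
Each red point is a Sox gene, placed by the GC content of its longest coding transcript (percent) and by its log2 difference between striatal inputs of animals 971 and 974 and those of 970 and 977; grey squares are medians over 10 equal classes of 11900 genes. The grey line runs between 0.47 at low GC and -0.61 at high GC, and Sox21 at 1.35 and Sox1 at 0.69 stand above it.

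FPKM are per length, so levels were ordered between genes, though striatal inputs also differed by transcript GC content. In striatal IP, Sox9 (142 scaled FPKM) led without overlap, followed by Sox8 (44.8), Sox1 (37.9) and Sox2 (37.4), whose ranges overlapped, then Sox21 (18.9), Sox11 (10.9), Sox5 (8.09), Sox4 (3.87), Sox6 (3.09) and Sox10 (2.55). Of the lower 6, Sox21, Sox11 and Sox5 each overlapped the next of these 3, and so did Sox4, Sox6 and Sox10. In striatal input, Sox8 (16.1), Sox10 (14.9), Sox1 (14.4), Sox11 (9.07) and Sox9 (8.76) each overlapped the next. There Sox8 was the highest member in animals 970 and 977, and Sox1 in 971 and 974. In hippocampal IP, Sox9 (215) led without overlap, ahead of Sox2 (52.7), Sox8 (49.0) and Sox1 (44.9), which overlapped, and Sox10 (1.08) came last. In hippocampal input, Sox9 (13.3) led without overlap, ahead of Sox8 (10.4), Sox10 (9.35), Sox1 (7.66) and Sox11 (6.17), of which neighbours overlapped.

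The gene with the most similar pattern to a member was found as the smallest root mean square difference of log2 levels over the 16 libraries after each gene's mean was removed. Sox9 was nearest to Sparcl1 (0.141), a secreted synapse-promoting protein gene of astrocytes, and Sox2 to Hepacam (0.166), an astrocyte adhesion gene. Sox1 was nearest to Gng5 (0.129), Sox6 to Il17ra (0.129), Sox8 to Jup (0.154), Sox4 to Cndp2 (0.219) and Sox21 to Elovl2 (0.273). Pax6, a factor of neural progenitors and astrocytes, was among the 3 nearest to Sox6 (0.14). Sox10 was nearest to Dusp26 (0.174). Sox11 was nearest to Dcx (0.249), then to Kif15 (0.265), a mitotic kinesin gene, and Ntn1 (0.291), an axon guidance gene.

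Kif15 was higher in striatal than in hippocampal IP (1.03 ± 0.15, adjusted p = 0.000175) and fell by 0.41 ± 0.15 in hippocampal IP over input (adjusted p = 0.0261), as Sox11 did. In striatal IP over input it rose by 0.43 ± 0.15 (adjusted p = 0.0196), where Sox11 did not pass.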

How the data were processed

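The authors deposited 1 table of FPKM per library, per the labels. Per the submitters' processing notes, bcl2fastq 2.17, STAR and HTSeq were used with mm10; their settings and the strand setting of the counting are not given in the sources used here. Of the 24060 labels, 27 had been turned into dates and 2 were repeated, and 22776 (94.7%) matched GENCODE vM21. The Sox genes and lists were chosen with earlier results of these data known.

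FPKM were divided by a trimmed-mean factor per library (30% of log ratios and 5% of levels trimmed; factors 0.746 to 1.303), and log2(scaled FPKM + 1) entered a limma model (version 3.58.1, R 4.3.3; trended, robust variance; 4 group means, 12 residual degrees of freedom). Calls were at Benjamini-Hochberg adjusted p under 0.05 over the 13470 labels that reached 1 FPKM in 4 or more libraries. The 5 comparisons shared libraries. All 10 Sox genes were described, and the 3 nearest genes to each, and up to 4 genes of a list with the smallest p, could be named; the nearest gene to Sox5 is not reported here. The model fit was also run on simulated counts. These went through no scaling and held no animal effect or GC shift, so that run does not cover those points. Alternatives were pseudocounts of 0.1 and 0.5, no filter, no scaling, the animal as a block, each animal left out, striatal inputs of 971 and 974 left out, plain variance, and fits of only the 2 groups compared.

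The smallest spacing of a gene's FPKM gave the depth, with 97.7% of 4196 low genes on whole steps (tolerance 0.05), and its absolute size rests on 11 genes. It differed 5.46-fold between libraries. Whole fragments were recovered for 8 of the 10 members, and Sox5 and Sox6 could not be fitted.

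Libraries were paired by animal number, per the labels. After group means were removed, same-animal libraries correlated across genes at 0.308 to 0.532 between the IPs (own partner best in 4 of 4), 0.07 to 0.168 between striatal IP and hippocampal input (4), 0.085 to 0.172 between hippocampal IP and input (4), 0.053 to 0.319 between the inputs (3), 0.011 to 0.065 between striatal input and hippocampal IP (3), and -0.008 to 0.085 between striatal IP and input (2).

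RefSeq promoter windows matched 8 of the 10 members. Plots used matplotlib 3.10.9 in Python 3.11.15, and tables pandas 2.3.3 and numpy 2.4.6.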

Additional observations from a re-analysis of the deposited data

Results flagged for a closer look

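Sox1, Sox6 and Sox11 differed between regions in IP over input, by a test of the difference itself. Sox1 had a difference of differences (striatum minus hippocampus, IP minus input) of -1.04 (limma, adjusted p = 0.0259), Sox6 of -0.78 (adjusted p = 0.00315) and Sox11 of 0.89 (adjusted p = 0.0344). Sox1 and Sox6 were less enriched in striatal than in hippocampal IP in 4 of 4 animals. For Sox11, IP over input was higher in striatum than in hippocampus in 4 of 4. Sox11 was not called enriched in either region: it fell in hippocampal IP and did not pass in striatum. The Sox6 call held in all the alternatives run for this comparison. Sox1 did not pass when animal 970 (adjusted p = 0.0672), 971 (0.219) or 974 (0.065) was left out, or the striatal inputs of 971 and 974 together (0.113), and Sox11 did not when 970 (0.184), 971 (0.114) or 977 (0.117) was.

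Single libraries stood apart from their group by a gap test in 4 of 40 groups of 4 examined, where chance alone flags about 1 in 20. Sox9 in animal 970 was the highest of its group in hippocampal IP (239 scaled FPKM) and in hippocampal input (16.7). Sox5 was highest in the striatal input of animal 974 (1.91), and Sox2 was lowest in the hippocampal input of animal 971 (2.47).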

How the results depend on the processing

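Of 590 member values under an alternative, 546 kept direction and side of the threshold, 16 lost the call, 17 gained it and 11 changed sign. With the other pseudocounts, no filter and plain variance, 50 of 50 were kept in each. The values that changed sign had not passed. Without scaling, Sox11 was -0.11 in striatal IP over input, Sox8 0.014 between IPs and Sox9 0.15 in the difference of differences. Leaving out each animal in turn gave -0.048 (without 970) to 0.38 for Sox11 in striatal IP over input. Between inputs it gave -0.25 to 0.083 (without 974) for Sox2 and -0.37 to 0.12 (without 970; 0.02 without 977) for Sox21. In the difference of differences it gave -0.16 to 0.031 (without 974; 0.0072 without 977) for Sox9. Without the striatal inputs of 971 and 974, Sox2 was 0.25 between inputs and Sox21 0.07 in the difference of differences. The cause was not tested.

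Counts of members moved between regions, and so did those of all genes. Between IPs, 1 member was lower without scaling (443 of all genes) and 4 without those 2 inputs (1145). Leaving out an animal gave 1 to 2 members higher (504 to 801 genes) and 1 to 2 lower (370 to 564), with 874 to 1365 genes called either way. Between inputs, 4 were higher with the animal as a block (2124 genes), and leaving out an animal gave 1 to 3 higher (1088 to 1788), with 2832 to 4449 called either way. In the difference of differences, 3 were higher without scaling (1599 genes), 2 with the block (1298) and 2 without those 2 inputs (1104). Leaving out an animal gave 0 to 2 higher (474 to 1001) and 1 to 2 lower (275 to 565), with 749 to 1566 called either way. The block changed no member's call other than those given with the results.

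Without scaling, the median of all genes moved by -0.29 in striatal and -0.45 in hippocampal IP over input, 0.13 between IPs and 0.17 in the difference of differences. The share of calls that were higher then was 36.1%, 26.0%, 69.4% and 72.2%, where scaled values gave 51.6%, 45.9%, 57.2% and 61.4%. Among the 8 members with recovered fragments, Sox4 in striatal input had the fewest, with 2 to 39 per library.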

Other observations

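Of 10 other Sox family genes, 4 were tested. Sox13, the SoxD gene besides Sox5 and Sox6, averaged 11.1 ± 3.15 scaled FPKM in striatal IP against 1.02 ± 0.588 in striatal input, and 9.92 ± 1.41 in hippocampal IP against 1.53 ± 0.382 in hippocampal input (SD, n = 4). It rose by 2.60 ± 0.22 and 2.11 ± 0.22 on the log2 scale (limma, adjusted p = 3.6e-08 in striatum and 3.43e-07 in hippocampus). Sox7, a SoxF gene known from vessels, averaged 2.59 ± 0.395 in striatal IP against 0.693 ± 0.287 in striatal input, and 4.96 ± 0.625 in hippocampal IP against 0.542 ± 0.208 in hippocampal input. It rose by 1.09 ± 0.15 (adjusted p = 5.72e-06) and by 1.95 ± 0.15 (adjusted p = 5.33e-09), and it was lower in striatal than in hippocampal IP (-0.73 ± 0.15, adjusted p = 0.00265). Sox18, also a SoxF gene of vessels, went the other way and fell by 1.07 ± 0.19 in striatum (adjusted p = 0.000122) and by 1.39 ± 0.19 in hippocampus (adjusted p = 7.68e-06). The endothelial list fell with 4 of 4 tested genes in both regions (median -1.11 in each).

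Sox12, the SoxC gene besides Sox4 and Sox11, averaged 2.12 ± 0.417 scaled FPKM in striatal IP against 2.11 ± 0.460 in striatal input, and 2.07 ± 0.357 in hippocampal IP against 3.68 ± 0.269 in hippocampal input. It fell by 0.61 ± 0.13 in hippocampus (adjusted p = 0.000745), had a log2 fold change of 0.0058 in striatum (adjusted p = 0.974), and its difference of differences was 0.62 ± 0.19 (adjusted p = 0.0398).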
